A study of Mus musculus with 10 samples.

Results

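The collagen genes of the mouse were followed in the lung from 24 hours to 32 weeks after irradiation of the chest. The family was taken as every protein-coding gene whose GENCODE M21 symbol reads Col, a type number, a and a chain number. All 44 genes of this form were among the 45786 genes measured, and they make up 27 collagen types. They were grouped as 11 fibrillar chains (types I, II, III, V, XI, XXIV and XXVII), 8 basement membrane chains (types IV, XV and XVIII) and 25 other chains. RNA came from whole-lung cell suspensions of C57BL/6J mice, an inbred strain, and the labels name no engineered allele. The irradiated group had received 12.5 Gy of γ-rays to the whole thorax and the control group 0 Gy, with age matching. There was 1 pool of 3 mice for each treatment at 24 hours and at 1, 4, 12 and 32 weeks, so each group held 5 pools and no time had a second pool of the same treatment. The age of the mice at exposure is not given in the sources used here.

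Collagens are matrix proteins built of chains that wind around each other into a stiff helix, which requires a glycine in each triplet of residues. Fibrillar collagens, mainly types I and III in lung, form the tensile fibres of airway walls, vessels and alveolar septa, and fibroblasts are their main source. Type IV collagen forms the sheet-like network of the basement membrane under epithelium and endothelium, while type VI forms beaded filaments between cells and fibres. Excess deposition of fibrillar collagen is the defining feature of lung fibrosis, a late complication of thoracic irradiation.

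The glycine repeat can be read directly from the genes. The lengths of inner coding exons, counted whether or not they carry the repeat, differed between the classes on average. Below is the first coding exon of 54 bases that opens with a whole glycine codon, for 3 fibrillar chains and 1 basement membrane chain. Bases read 5′ to 3′ on the coding strand of GRCm38 with GENCODE M21 exons. Capitals mark glycine codons (GGN), which open each triplet of codons.
Col1a1, chr11:94939904-94939957, plus strand: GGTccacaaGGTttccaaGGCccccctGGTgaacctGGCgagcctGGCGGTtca
Col1a2, chr6:4515481-4515534, plus strand: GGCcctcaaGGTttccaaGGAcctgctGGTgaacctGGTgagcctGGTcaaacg
Col3a1, chr1:45325360-45325413, plus strand: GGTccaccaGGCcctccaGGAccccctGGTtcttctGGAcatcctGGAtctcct
Col4a1, chr8:11245211-11245264, minus strand: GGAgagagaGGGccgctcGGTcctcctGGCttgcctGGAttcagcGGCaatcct
Each of the 4 exons holds 6 repeats of the glycine triplet, and the Col1a1 exon has 1 further glycine codon out of phase. The length and the opening glycine were conditions of the choice. In Col4a1 only 2 of 50 inner coding exons have this length. Exons of exactly 54 bases made up 305 of 627 inner coding exons of the fibrillar genes (48.6%), 16 of 361 of the basement membrane genes (4.43%) and 148 of 929 of the others (15.9%). In all other protein-coding genes 0.444% of inner coding exons had this length. Lengths that are a multiple of 9 bases were 83.9% of inner coding exons in fibrillar, 45.2% in basement membrane and 57.6% in other collagen genes, against 13.7% elsewhere. Single genes overlap between classes: exons of 54 bases were 42.9% of inner coding exons in Col1a1 and 46.7% in Col9a2 and Col9a3, which are in the other class. Col8a1 and Col8a2, the chains of type VIII collagen, have 2 coding exons each and therefore 0 inner ones.

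Several collagen genes are neighbours. Col4a1 and Col4a2 lie head to head on chromosome 8 with first exons that overlap by 22 bases. Col4a4 and Col4a3 lie head to head on chromosome 1 with 71 bases between them, and Col4a6 and Col4a5 on chromosome X with 1308. Col3a1 and Col5a2 lie tail to tail on chromosome 1, 24614 bases apart, and Col6a2 and Col6a1 follow each other on chromosome 10. The library kit did not mark the strand, so reads from an exon that overlaps a gene on the opposite strand cannot be assigned to either. Such overlap touched 10 members, among them Col4a3 with 289 bases and Col5a1 with 99 and 113 bases shared with 2 non-coding transcripts.

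Libraries held an estimated 8665409 to 17452995 fragments once the authors' scaling was removed, with the 12-week control the shallowest. These depths are approximate. Of the 44 members, 29 had enough counts to be tested, namely 8 fibrillar, 8 basement membrane and 13 other chains. The other 15 reached at most 26 counts in any pool, and 9 of them were at 0 in at least 5 pools. Among those 15 were Col2a1 and Col9a1, cartilage collagens, and Col10a1, the collagen of growth plate cartilage. Of 13 cartilage marker genes 4 had enough counts to be tested, and Matn3 and Ucma were at 0 counts in all pools. All 8 alveolar type 2 markers were well above the count minimum and summed to 7594 to 58590 CPM (counts per library size, after edgeR's TMM scaling), so the labelled tissue's epithelium was present in each pool.

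Type III and type I chains were the most abundant collagen transcripts per length. Mean FPKM over the 10 pools was 158 for Col3a1 (range 56.6 to 250.3), the only chain of type III collagen. It was 72.1 for Col1a2 (27.5 to 105.1) and 36.6 for Col1a1 (12.5 to 61.5), the chains of type I collagen. In every pool the order of these 3 genes was the same, with Col3a1 at 2.91 to 5.30 times and Col1a2 at 1.41 to 2.37 times the FPKM of Col1a1. Next came Col6a1 (mean 17.9 FPKM), Col6a2 (17.7) and Col4a1 (17.7), whose ranges overlapped almost wholly and which were not separated by level. Col4a2 (13.9) and Col14a1 (10.2) followed, and the remaining members had a mean below 4 FPKM. Col14a1 encodes a fibril-associated collagen that binds the surface of fibrils. For 12 of the 29 tested members the ratio of FPKM to count-based values varied over 1.5 times between pools, so the fold changes and tests below are from the counts, and FPKM serves for levels and shares set between genes.

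The make-up of collagen RNA differed along the series. The fibrillar chains made up 77.0% of the summed collagen FPKM in the 24-hour control, then 77.7%, 69.9%, 70.5% and 66.2% in the controls at 1, 4, 12 and 32 weeks. In the irradiated pools the share was 75.4%, 72.6%, 69.4%, 73.8% and 54.7% at the same times. The 32-week irradiated pool thus had the lowest fibrillar share of all 10. Its basement membrane share was 24.6%, while the other 9 pools lay between 6.99% and 12.2%. The summed collagen FPKM of this pool, at 185.9, was the lowest of all 10. Its basement membrane FPKM summed to 45.69, above the 32-week control (22.14) and near the 24-hour control (45.52). That sum was below those of the irradiated pools of 24 hours (52.61) and 1 week (54.62). These shares and sums describe single pools and carry no test.

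The clearest pattern of the family was a decline of the type I and type III chains and of Col6a1 with time. Col3a1 stood at 1272, 1147, 795, 506 and 414 CPM in the controls from 24 hours to 32 weeks. In irradiated lung it stood at 1189, 1222, 764, 752 and 262 CPM. Both groups were high at 24 hours and 1 week and lowest at 32 weeks, 3.07-fold below the first time in controls and 4.54-fold below it in irradiated pools. Col1a2 went from 699 CPM at 24 hours through 640, 459 and 319 to 354 CPM in controls, and from 691 through 682, 424 and 440 to 172 CPM after irradiation. Col1a1 read 306, 199.7, 242, 97.8 and 131 CPM in controls and 309.9, 222, 165, 154 and 57.7 CPM in irradiated pools. Col6a1, a chain of the type VI filaments, read 155, 132, 120.3, 94.7 and 91.5 CPM in controls and 187, 180.4, 121, 100.2 and 52.9 CPM after irradiation. For each of these 4 genes the irradiated pool of 32 weeks was below every control, and for Col6a1 the irradiated pools of 24 hours and 1 week were above every control. In RNA of a whole suspension, fewer cells of a type and less RNA per cell cannot be told apart.

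**Figure D1:**
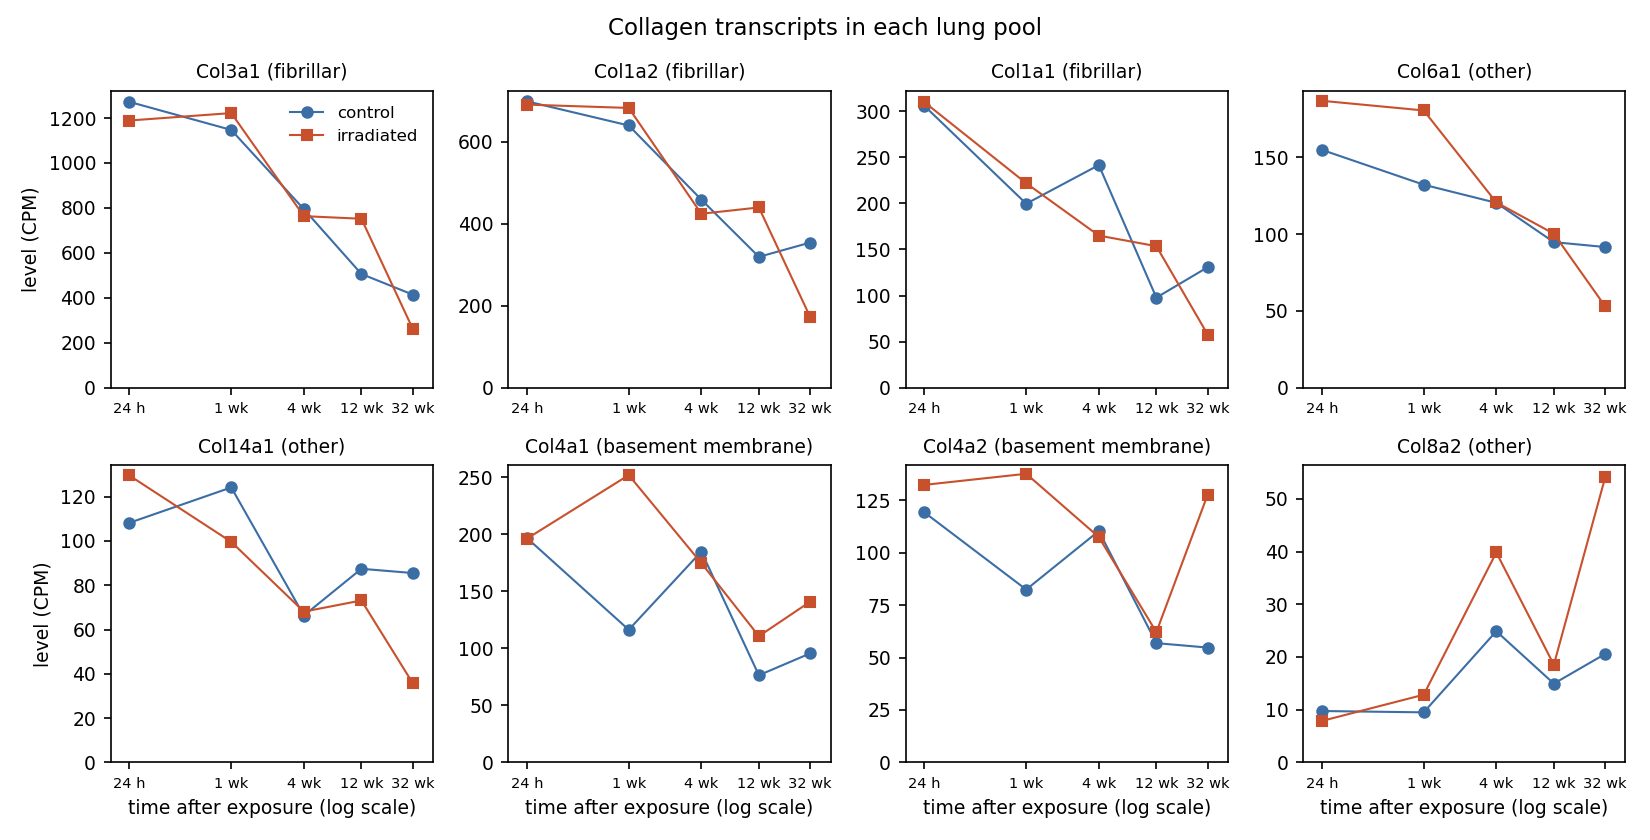
Level of 8 collagen genes in each pool, in CPM on a linear axis from 0, against time after exposure on a log axis; blue circles are control and orange squares irradiated pools, each point 1 pool of 3 mice. Col3a1, Col1a2, Col1a1 and Col6a1 decline along the series in both groups, while Col8a2 is highest in the 32-week irradiated pool at 54.1 CPM.

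A slope over log2 days, shared by both treatments and chosen after the levels had been seen, was fitted to all genes. With edgeR's quasi-likelihood test and Benjamini-Hochberg adjustment over 15625 genes, 4 members fell and 0 rose, where 0.186% of all genes fell and 0.474% rose. Col3a1 fell by 0.23 ± 0.04 on the log2 scale per doubling of days (SE; adjusted p = 0.0373), Col1a1 by 0.21 ± 0.04 (0.0442), Col1a2 by 0.18 ± 0.04 (0.0463) and Col6a1 by 0.16 ± 0.03 (0.0442). The first and last times were 7.81 doublings apart. At an unadjusted p below 0.05 there were 14 members with a negative and 2 with a positive slope, against 6.73% and 8.25% of all genes. The 14 were 6 fibrillar, 3 basement membrane and 5 other chains. The 2 with a positive slope were Col8a2 (0.24 ± 0.06, adjusted p = 0.102) and Col4a6 (0.24 ± 0.07, adjusted p = 0.131), a type IV chain found in few basement membranes. The median slope was −0.16 for the 8 fibrillar, −0.06 for the 8 basement membrane and −0.08 for the 13 other chains, and 0.00 over all genes.

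These slope calls were close to the threshold. No member passed with total-count scaling, or when both pools of 24 hours, 1 week, 12 weeks or 32 weeks were left out, and Col1a1 and Col3a1 passed without those of 4 weeks, while DESeq2 called 14 members (12 lower, 2 higher) and 5.8% of all genes. All 55 slopes computed for the 4 genes and Col8a2 under the alternatives kept their direction. The age of the mice and anything else that differed between collection times cannot be told apart.

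**Figure D2:**
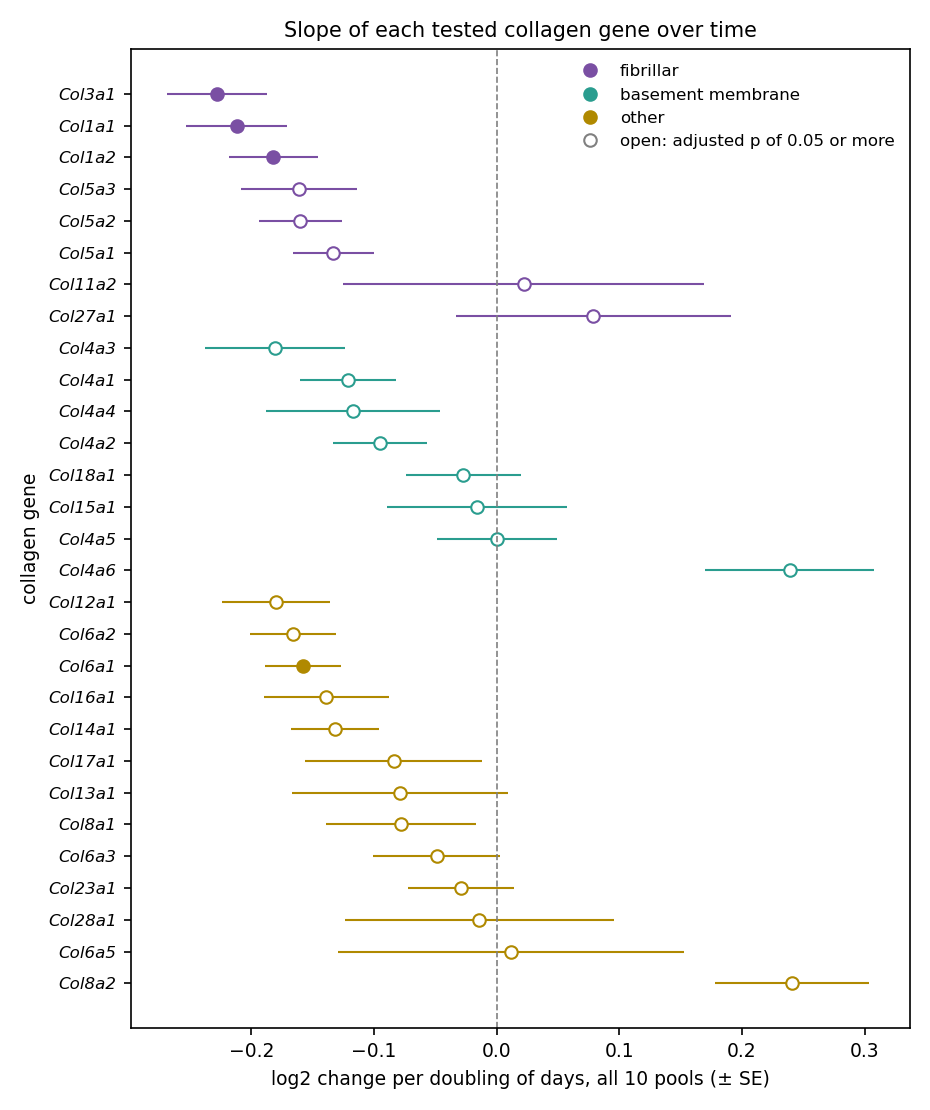
Slope of each of the 29 tested collagen genes, as log2 change per doubling of days with treatment in the model, over all 10 pools; points are estimates, bars ± SE, colours the 3 classes, and filled points have an adjusted p below 0.05. The 4 filled points, Col3a1, Col1a1, Col1a2 and Col6a1, lie between −0.23 and −0.16, and Col8a2 and Col4a6 lie near 0.24.

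In the control pools alone, the slope was negative at an unadjusted p below 0.05 for 10 members and positive for 0, where 1.6% of all genes were negative and 2.71% positive. Col3a1 had the smallest p, with a control slope of −0.22 ± 0.06. Col1a1 (−0.17 ± 0.06), Col1a2 (−0.15 ± 0.05), Col5a2 (−0.14 ± 0.05) and Col6a1 (−0.10 ± 0.04) were next. The others were Col12a1, Col4a3, Col6a2, Col4a2 and Col4a1. No member passed after adjustment (lowest adjusted p 0.973, with 0% of all genes called), and DESeq2 called Col3a1. This fit shares its 6 residual degrees of freedom with the irradiated pools.

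Over the 5 times together, no collagen gene was called different between irradiated and control lung, and 0% of all genes were. DESeq2 and limma on FPKM likewise called 0 members. At an unadjusted p below 0.05 there were 3 members higher and 0 lower, where 6.62% and 4.47% of all genes were. These 3 were Col8a1 and the paired chains Col4a1 and Col4a2. The median log2 change was −0.15 in the 8 fibrillar chains (2 positive, 6 negative), 0.34 in the 8 basement membrane chains (7 positive, 1 negative) and −0.15 in the 13 others (4 positive, 9 negative), against 0.01 over all genes.

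Col8a1, a chain of the short network-forming type VIII collagen, was the only member higher in 5 of 5 matched pairs, a pattern that 6.75% of all genes showed. Its level was low, at 1.98, 0.811, 1.73, 2.21 and 1.58 CPM in controls and 5.05, 4.11, 2.30, 2.94 and 2.01 CPM in irradiated pools. The groups overlapped only through the irradiated pool of 32 weeks, which lay below the 12-week control. Its log2 change was 0.95 ± 0.37 (adjusted p = 0.403). No member was lower in 5 of 5 pairs, as 5.73% of all genes were.

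Col4a1 and Col4a2 encode the chains of the most widespread type IV network. Col4a1 read 197, 116, 185, 76.4 and 95.6 CPM in controls and 196, 252, 175, 111 and 141 CPM after irradiation. Col4a2 read 119, 82.5, 110.4, 56.9 and 54.8 CPM in controls and 132, 138, 108, 62.1 and 128 CPM after irradiation. The largest gaps were at 1 week and 32 weeks. The irradiated pool then stood at 2.17 and 1.47 times its control for Col4a1 and at 1.67 and 2.33 times for Col4a2. At 12 weeks the irradiated pool stood at 1.45 times its control for Col4a1, close to 32 weeks, and at 1.09 times for Col4a2. Over the 5 times the log2 changes were 0.42 ± 0.17 (adjusted p = 0.414) and 0.44 ± 0.18 (0.424). The 2 genes did not keep a fixed ratio: by FPKM Col4a2 was at 0.659 to 0.928 times Col4a1 in controls and at 0.63 to 1.198 times in irradiated pools, the top value at 32 weeks. By counts that ratio was 0.906 at 32 weeks after irradiation and at most 0.745 elsewhere.

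The chains of the less common type IV networks had low counts and differed in pattern. Col4a3 read 10.5, 4.62, 6.42, 4.67 and 2.32 CPM in controls and 6.17, 7.46, 8.06, 2.79 and 3.41 CPM in irradiated pools. Col4a4, its neighbour and partner, read 2.48, 5.27, 3.29, 3.91 and 3.89 CPM in controls and 8.41, 6.96, 6.22, 3.25 and 1.63 CPM after irradiation. Irradiated Col4a4 was thus above every control at 24 hours, 1 week and 4 weeks and below every control at 32 weeks. Col4a6 read 1.49, 2.03, 0.867, 6.37 and 3.34 CPM in controls and 1.84, 3.02, 3.84, 5.58 and 7.43 CPM in irradiated pools. Col15a1 and Col18a1, which carry an endostatin domain and sit in basement membranes of vessels, had log2 changes over the 5 times of −0.29 ± 0.37 and 0.33 ± 0.21 (adjusted p 0.804 and 0.599).

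Whether the ratio of irradiated to control changed along the series was tested with an interaction of treatment and log2 days. It called 0 members and 0% of all genes. At an unadjusted p below 0.05 there were 4 members, where 7.01% of all genes were. The estimate was negative for Col4a4 (−0.33 ± 0.10 per doubling of days), Col14a1 (−0.14 ± 0.05) and Col6a1 (−0.12 ± 0.05) and positive for Col8a2 (0.17 ± 0.06), each at an adjusted p of 0.679 to 0.685. The estimate was negative for 8 of 8 fibrillar, 3 of 8 basement membrane and 10 of 13 other chains, and for 7412 of all 15625 genes.

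Single irradiated pools were then set against the 5 controls of all times. These comparisons share their controls. The spread comes from controls of different ages, the lone pool is taken to vary like them, and a difference of age between the pool and the mean control cannot be told apart from the treatment. edgeR called 0 members at each of the 5 times, where it called 1.05% of all genes at 24 hours, 0.0128% at 1 week, 0.0512% at 4 weeks, 0% at 12 weeks and 0.819% at 32 weeks. At an unadjusted p below 0.05 there were 3 members at 24 hours, all higher, where 12.0% of all genes were in either direction. They were Col8a1 (1.597 ± 0.53), Col4a4 (1.15 ± 0.43) and Col6a1 (0.65 ± 0.25). At 1 week there were 3, all higher, against 9.52% of all genes: Col5a2 (1.02 ± 0.34), Col8a1 (1.28 ± 0.55) and Col6a1 (0.58 ± 0.26). At 4 weeks only Col8a2 was (1.31 ± 0.45), against 7.17%. At 12 weeks Col15a1 (−1.64 ± 0.66) and Col5a1 (−0.71 ± 0.30) were lower, against 10.7%.

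At 32 weeks, the latest time, many collagen genes of the irradiated pool lay outside the control range, most of them below it. Of the 29 tested members, 14 were below all 5 controls and 5 above all of them, where 23.3% and 25.5% of all genes were. At an unadjusted p below 0.05 there were 9 lower members and 1 higher, against 6.64% and 9.66% of all genes. The 9 were the type I chains, Col3a1, Col5a1, the 3 main type VI chains, Col13a1 and Col14a1. The lowest adjusted p was 0.0711, for Col14a1. DESeq2 called 7 of the 29 at this time (Col1a2, Col5a1, Col6a1, Col6a2, Col6a3 and Col14a1 lower, Col8a2 higher) and 5.53% of all genes. With log2 days as a covariate all 10 kept their direction, and the differences shrank by over 1.5 times for Col1a1 (−1.75 to −1.09), Col1a2 (−1.51 to −0.94) and Col3a1 (−1.65 to −0.76).

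Col14a1 read 108, 124, 66.3, 87.4 and 85.5 CPM in controls and 129.6, 99.6, 68.1, 73.1 and 35.8 CPM in irradiated pools. Only the last pool left the control range downwards (log2 −1.39 ± 0.32). Col6a2 read 127, 103, 89.2, 65.1 and 73.8 CPM in controls and 127, 123, 86.6, 71.4 and 32.0 CPM after irradiation (−1.51 ± 0.35 at 32 weeks, adjusted p = 0.0751). Col6a3, the long chain that completes the type VI filament, read 38.6, 27.3, 31.9, 24.8 and 41.0 CPM in controls and 28.8, 51.0, 24.8, 37.3 and 13.6 CPM after irradiation (−1.26 ± 0.33, adjusted p = 0.103). All 3 type VI chains had their lowest value of the 10 pools there.

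Col5a1 and Col5a2, chains of type V collagen, which sits inside type I fibrils, differed in pattern. Col5a1 read 56.8, 41.1, 33.1, 35.2 and 39.9 CPM in controls and 51.7, 52.7, 34.2, 25.2 and 18.1 CPM in irradiated pools, the last 2 below all controls. Col5a2 read 46.1, 37.3, 33.1, 31.1 and 18.3 CPM in controls and 50.5, 68.2, 39.8, 28.2 and 23.1 CPM in irradiated pools, within the control range at 32 weeks. The FPKM ratio of Col5a2 to Col5a1 was 0.542 to 1.19 in controls and 1.12 to 1.55 in irradiated pools, higher in the irradiated pool at each time. By counts it was 0.457 to 1.00 in controls and 0.977 to 1.29 in irradiated pools. Overlap of Col5a1 exons with non-coding transcripts on the other strand limits this ratio.

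Col13a1, a transmembrane collagen, read 13.45, 7.38, 19.8, 3.65 and 16.96 CPM in controls and 9.29, 18.1, 7.75, 7.75 and 3.25 CPM in irradiated pools. It scattered widely in both groups, and its difference at 32 weeks was −1.90 ± 0.84 (adjusted p = 0.297). Col8a2, the other chain of type VIII collagen, was among the few members above the controls. It read 9.74, 9.49, 24.9, 14.9 and 20.6 CPM in controls and 7.85, 12.8, 39.8, 18.5 and 54.1 CPM after irradiation. The irradiated pools of 4 and 32 weeks were above all controls (at 32 weeks 1.77 ± 0.43, adjusted p = 0.0831). Col18a1 read 26.3, 26.1, 30.0, 8.998 and 25.3 CPM in controls and 26.6, 30.6, 26.7, 22.6 and 31.9 CPM in irradiated pools. Col15a1 read 2.15, 3.49, 6.16, 4.08 and 3.52 CPM in controls and 4.17, 3.44, 4.68, 1.24 and 2.71 CPM in irradiated pools. The 12-week control was low for Col18a1 and the 12-week irradiated pool for Col15a1.

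Col11a2, Col17a1, Col27a1, Col28a1 and Col6a5 were close to the detection limit. Col17a1, a hemidesmosome component of epithelial cells, lay between 0.844 and 4.36 CPM over the 10 pools. Col27a1 lay between 0.401 and 2.87 CPM and Col28a1 between 0.0867 and 2.19 CPM. Col28a1 had the most negative log2 change of the tested members over the 5 times (−1.20 ± 0.62, adjusted p = 0.514 in edgeR's test). Col11a2 (at most 2.22 CPM) and Col6a5 (at most 2.01 CPM) were at 0 in some pools, and no fold is given there.

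Each irradiated pool was also compared with its control of the same time, which removes the difference of age but leaves 1 pool against 1 pool and no test. At 24 hours 3 of the 29 members were at least 2-fold above their control and 1 below, where 3.34% and 4.64% of all genes were. At 1 week there were 5 above and 1 below (6.5% and 3.46% of all genes), at 4 weeks 2 and 4 (3.65% and 3.39%) and at 12 weeks 5 and 3 (5.25% and 6.23%). At 32 weeks 3 were above and 11 below, where 8.32% and 8.01% of all genes were. The 11 were Col1a1, Col1a2, Col4a4, Col5a1, Col5a3, Col6a2, Col6a3, Col13a1, Col14a1, Col16a1 and Col27a1, and the 3 were Col4a2, Col4a6 and Col8a2. Col1a1 was 2.27-fold, Col1a2 2.06-fold and Col3a1 1.58-fold below the matched control at 32 weeks. At 12 weeks they stood at 1.57, 1.38 and 1.49 times the matched control. That control had the lowest Col1a1 and Col1a2 of the 5 controls (97.8 and 319 CPM). Against all 5 controls the log2 differences of these 3 genes at 12 weeks were −0.35, −0.17 and −0.14. The counts at 4 and 12 weeks include Col11a2, and that at 12 weeks Col6a5, for which 1 of the 2 pools was at 0 and the ratio depends on the prior count. Median matched log2 differences at 32 weeks were −1.06 for fibrillar, 0.43 for basement membrane and −0.79 for other chains, and 0.02 over all genes. At the 4 earlier times the fibrillar median lay between −0.09 and 0.26.

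**Figure D3:**
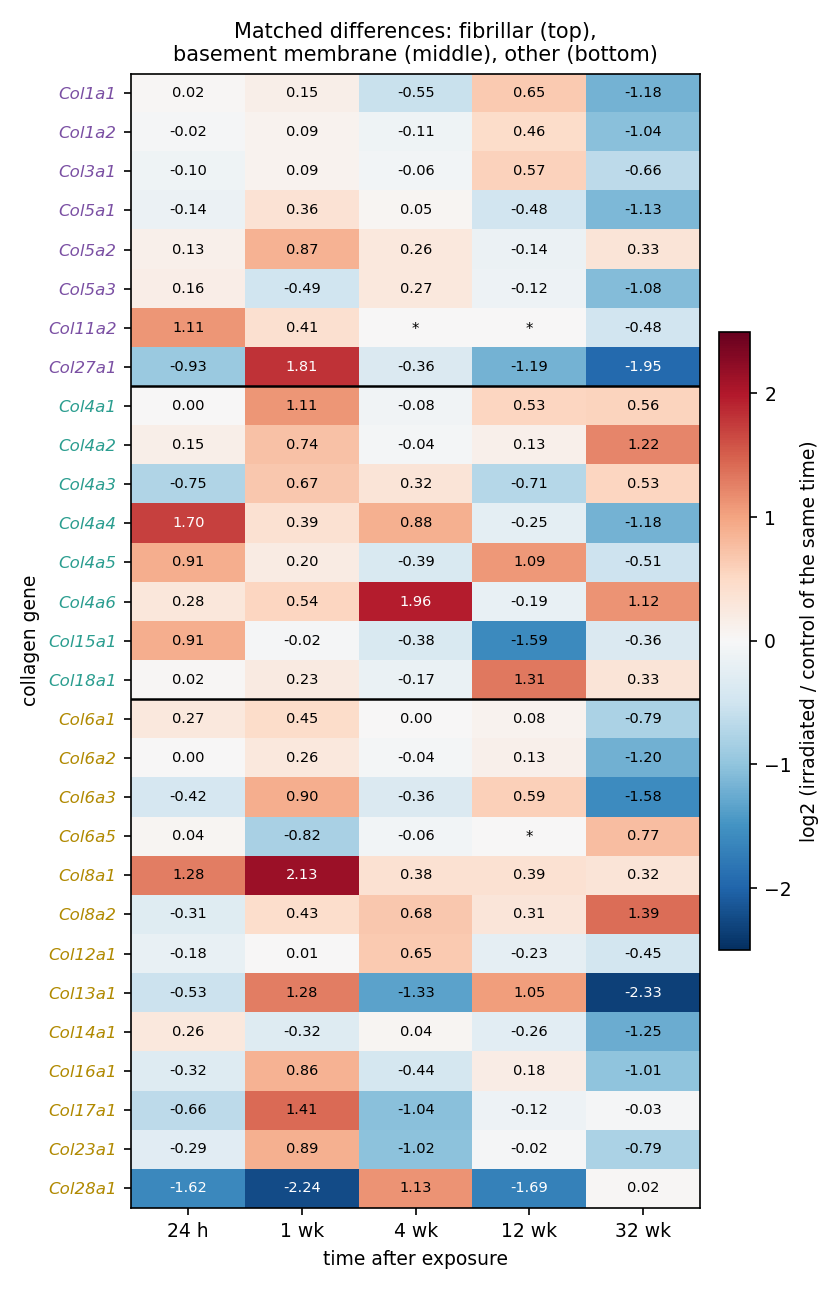
Log2 ratio of each irradiated pool to the control pool of the same time (prior count 2) for the 29 tested collagen genes in rows and the 5 times in columns, red above and blue below the control; an asterisk marks 3 cells in which 1 of the 2 pools was at 0. The 32-week column is blue in 7 of 8 fibrillar rows and mixed in the basement membrane rows.

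Levels of cell type markers were set beside these values. Summed over 21 lung fibroblast markers, a list that holds no collagen gene, the level was 2700, 2295, 2470.0, 2078 and 2354 CPM in controls and 3024, 2323, 1299, 1418 and 879.7 CPM in irradiated pools. At 32 weeks 21 of 21 of these markers had a negative log2 difference from the controls, 6 fell with edgeR's test, and the median log2 difference was −1.57. Of all 15625 genes 7978 had a negative difference and 0.243% fell. Summed fibrillar collagen over the same pools was 2387, 2074, 1567, 994 and 967 CPM in controls and 2300.0, 2256, 1432, 1402 and 537 CPM in irradiated pools. In the controls the fibrillar sum was lower at 12 and 32 weeks than at the 3 earlier times. The marker sum stayed between 2078 and 2700 CPM there, with Dcn and Inmt as its largest terms. Single markers differed: 15 of 21 had a negative control slope and 6 a positive one. At an unadjusted p below 0.05 in edgeR's test 4 were negative and 0 positive, where 1.6% and 2.71% of all genes were. At 4 and 12 weeks the irradiated marker sum was below all controls while the fibrillar sum was not. The part of the markers in the collagen differences was not tested. All 21 fibroblast markers were detected.

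**Figure D4:**
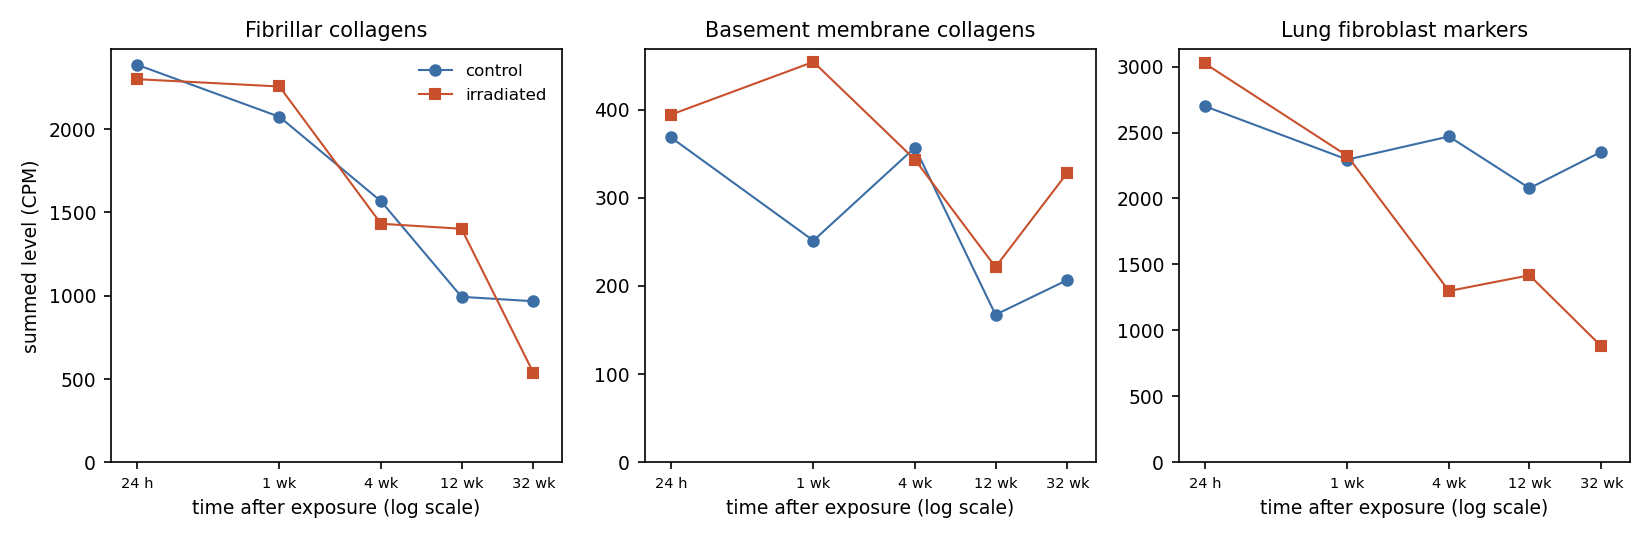
Summed level in CPM of the fibrillar collagens, the basement membrane collagens and 21 lung fibroblast markers in each pool, against time after exposure on a log axis, with the vertical axis from 0; each point is 1 pool. At 32 weeks the irradiated pool is lowest for the fibrillar sum (537 CPM) and the fibroblast markers (879.7 CPM), and its basement membrane sum of 328 CPM lies above its control at 207 CPM.

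Alveolar type 2 markers summed to 41980, 28630, 26920, 34510 and 23680 CPM in controls and to 57170, 58590, 42690, 7594 and 8728 CPM in irradiated pools. The irradiated pools of 24 hours, 1 week and 4 weeks were above every control. Median log2 differences of the 8 markers from the 5 controls were 1.22, 1.15 and 0.62 at these times. The irradiated pools of 12 and 32 weeks were far below every control. At these later times 8179 and 7978 of all 15625 genes had a negative log2 difference. All 8 of these markers had a negative log2 difference at both times (median −1.65 and −1.44), with an unadjusted p below 0.05 for 6 and 7 of them, and 2 fell at 32 weeks. Of the other marker lists, 1 of 7 skeletal muscle markers fell at 32 weeks, and 0 members of the smooth muscle, mesothelial, endothelial, alveolar type 1, cartilage, Schwann and nerve, red cell and leukocyte lists did. For the slope over all 10 pools, 4 of 21 fibroblast and 3 of 7 mesothelial markers fell, and 0 of every other marker list, where 0.186% of all genes fell. At an unadjusted p below 0.05 the slope was negative for 6.73% of all genes. It was so for 11 of 21 fibroblast, 6 of 7 mesothelial, 8 of 8 alveolar type 2 (median −0.22) and 6 of 10 endothelial markers. The same held for 4 of 6 red cell, 3 of 4 Schwann and nerve, 3 of 8 alveolar type 1 and 2 of 6 smooth muscle markers. Of the remaining lists, 1 of 4 cartilage, 1 of 8 leukocyte and 0 of 7 skeletal muscle markers had such a slope. At the same unadjusted level the slope was positive for 8.25% of all genes. It was so for 4 of 8 leukocyte, 1 of 4 cartilage and 1 of 7 skeletal muscle markers and for 0 of every other marker list. Mesothelial cells, which line the pleura and also make collagen, summed to 298, 209, 190.4, 172 and 125 CPM in controls and to 325, 346, 254, 214 and 171 CPM in irradiated pools. Endothelial cells make type IV collagen, and their 10 markers summed to 1437 CPM in the 32-week irradiated pool and 806.6 CPM in its control. Most of that gap came from Car4 (555 against 172 CPM) and Vwf (344 against 121 CPM). Against all 5 controls 3 of the 10 had a positive and 7 a negative log2 difference at 32 weeks, with a median of −0.15. At 1 week the sums were 1509 CPM in the irradiated pool and 1112 CPM in its control. The order was reversed at the first time (1182 against 1353 CPM), at 4 weeks (1096 against 1382 CPM) and at 12 weeks (840.6 against 1045 CPM). At 12 weeks 9 of the 10 markers had a negative log2 difference from the 5 controls. Col4a1 (110.7 against 76.4 CPM) and Col4a2 (62.13 against 56.88 CPM) were above their matched control at that time. The part of these cells in the type IV values was not tested.

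Genes that make and cross-link collagen gave few calls. Of 37 such genes 36 were tested, and over the 5 times 0 passed, where 0% of all genes did. The smallest p belonged to Plod1, a lysyl hydroxylase, at 66.7 ± 13.8 CPM in controls and 103.5 ± 11.4 CPM in irradiated pools (SD, n = 5 each; log2 0.65 ± 0.11, adjusted p = 0.150) and to P4ha1, a subunit of prolyl 4-hydroxylase (0.52 ± 0.11, 0.181). Both enzymes modify the chains inside the cell, and both were higher in 5 of 5 pairs. The smallest p with a negative change belonged to Pcolce2, an enhancer of procollagen processing (−0.51 ± 0.22, 0.445), and Fkbp7, a chaperone-like isomerase (−0.45 ± 0.20, 0.449), each of which was above its control in 1 of 5 pairs. At 32 weeks Pcolce2 fell by 1.41 ± 0.24 on the log2 scale against the controls (adjusted p = 0.0400), from 152 to 216 CPM in controls to 65.9 CPM. Along time in all 10 pools 4 genes fell and 0 rose: Sparc, which encodes a collagen-binding matrix protein (−0.15 ± 0.02, adjusted p = 0.0188), Pcolce (−0.14 ± 0.03, 0.0351), Adamts2, which trims procollagen ends (−0.16 ± 0.03, 0.0313), and Serpinh1, the collagen chaperone HSP47 (−0.15 ± 0.03, 0.0495). Sparc went from 832 to 365 CPM in controls and from 703 to 329 CPM in irradiated pools. Of these 36 genes 32 had a negative slope, as did 7849 of all 15625 genes, of which 29 fell.

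Of 19 receptor and turnover genes 18 were tested. Over the 5 times 0 passed, where 0% of all genes did. In edgeR's test Mmp9, a gelatinase, was closest and higher in 5 of 5 pairs (0.54 ± 0.12, adjusted p = 0.192). Ddr1, a collagen-binding receptor kinase, came next (0.37 ± 0.11, 0.310), also higher in 5 of 5. Timp3 (−0.23 ± 0.20, 0.708) and Ddr2 (−0.20 ± 0.20, 0.733) had the smallest p on the lower side. Single times, here and for Pcolce2 above, set 1 irradiated pool against the 5 controls of different ages. The shares of all genes called at those times are given above. At 24 hours Mmp9 rose by 0.91 ± 0.17 (adjusted p = 0.0421), to 169.6 CPM against 78.3 to 106 CPM in controls. Timp1, which inhibits matrix proteases, rose by 1.62 ± 0.29 (0.0357), to 33.6 CPM against 7.51 to 13.1 CPM in controls. At 32 weeks Timp3, a matrix-bound protease inhibitor, fell by 1.21 ± 0.21 (adjusted p = 0.0400), to 140 CPM against 274 to 374 CPM in controls. Ddr2, the collagen receptor of mesenchymal cells, fell by 1.36 ± 0.25 (0.0443), to 20.6 CPM against 46.9 to 62.6 CPM. For the slope over all 10 pools 0 of the 18 passed, where 0.186% of all genes fell and 0.474% rose.

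The region before the start site was compared for the gene with the steepest fall along time, Col3a1, and the gene with the highest slope, Col8a2. Sequences are RefSeq promoters of GRCm38.p6, cut to the bases before the first exon, 5′ to 3′ on the gene's strand. Capitals mark TATAA on either strand in Col3a1, where the matches on the 2 strands overlap, and GGGCGG on either strand in Col8a2.
Col3a1, chr1:45311288-45311537, plus strand: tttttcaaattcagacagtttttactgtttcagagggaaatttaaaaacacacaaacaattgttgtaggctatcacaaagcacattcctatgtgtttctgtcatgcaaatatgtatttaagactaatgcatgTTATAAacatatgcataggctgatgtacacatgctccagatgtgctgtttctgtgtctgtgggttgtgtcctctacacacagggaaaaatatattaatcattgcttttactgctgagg
Col8a2, chr4:126286544-126286792, plus strand: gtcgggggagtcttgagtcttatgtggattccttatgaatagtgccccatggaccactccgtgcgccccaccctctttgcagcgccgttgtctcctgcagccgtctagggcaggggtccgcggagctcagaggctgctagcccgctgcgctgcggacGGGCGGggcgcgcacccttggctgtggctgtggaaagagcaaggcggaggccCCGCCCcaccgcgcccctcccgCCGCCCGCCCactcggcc
The TATAA of Col3a1 began 117 bases before the start site. Col8a2 held GGGCGG 92 bases before the start on its own strand and 40, 18 and 14 bases before it on the opposite strand. The RefSeq table holds 38 collagen promoters, in which some members, such as Col1a1 and Col5a2, have no entry and others have several. In 250 bases before the start on both strands, GGGCGG was found in 57.9% of the 38, TATAA in 18.4% and CCAAT in 34.2%. Of all 32851 promoters 32.7%, 22.8% and 33.8% held these motifs. A match is a string of letters and was not tied here to the binding of any factor.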

How the data were processed

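Whole-lung RNA of 10 pools was sequenced by the submitters after Qiagen RNeasy PLUS extraction and Clontech and Illumina NexteraXT library steps, which name no molecular identifiers. Their processing notes list Trimmomatic 0.32, STAR 2.4.2a, Cufflinks 2.0.2, Cuffdiff and build GRCm38.p4, without the role of each tool or the annotation. The authors deposited tables of expected counts, which had been brought to a common scale: 77.7% to 80.5% of a library's low values were whole multiples (within 0.05) of a step of 0.577 to 1.387, and deposited totals were 9983710 to 13509769. The authors also deposited FPKM, fragments per gene scaled by length and library total, with the same scaling. There were 0 columns without a sample and 0 pairs of identical libraries. Of the gene IDs 45137 were matched to GENCODE M21, and the other 649 took at most 0.168% of a library's counts.

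Expected counts were rounded, scaled by TMM (factors 0.933 to 1.086) and filtered with filterByExpr at a minimum count of 10, which left 15625 genes. edgeR 4.0.16 in R 4.3.3 gave robust quasi-likelihood F tests, 2-sided, adjusted by Benjamini-Hochberg over all genes tested at a threshold of 0.05, and SE values as the change divided by the root of F. Time was a block in the comparison over the 5 times, since the labels match each irradiated pool to a control of the same time (4 residual degrees of freedom; common dispersion 0.0613). Single times had 4, the interaction 3, the control slope 6 and the shared slope 7. Matched ratios used a prior count of 2, and 3 counts was taken as the floor of a pool at 0. The p-values measure the spread between pools left by each model, in which biological and technical spread are not separated. With time as a block, that spread is how the irradiated to control difference varied between times. For single times it is the spread of controls of different ages. limma 3.58.1 and DESeq2 1.42.0 served as alternatives, with other scalings, filters and pools left out.

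Members, gene lists and markers were chosen with earlier results of these data known, so nothing here is independent support for those results; the shared slope was added after the levels had been seen. Values in each pool are given for 17 core chains and members past the threshold. They are also given for members with the 2 smallest p of each direction in each fit. For Col6a5, Col11a2, Col17a1, Col27a1 and Col28a1, close to the detection limit, a range or maximum is given instead. Pathway genes are named where they passed or had the 2 smallest p of each direction over the 5 times. Loxl1 is in both the synthesis list and the fibroblast list. Protein sequences were not analysed here.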

Additional observations from a re-analysis of the deposited data

Results flagged for a closer look

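Within a group of 5 pools, 4 of 48 sets of values for the 24 collagen genes followed had 1 pool far from the other 4 by Dixon's criterion (critical value 0.71), where chance gives about 1 in 20. Col18a1 was at 8.998 CPM in the 12-week control, the shallowest library by estimate, and at 25.3 to 30.0 CPM in the other controls. Col17a1 was at 4.36 CPM in the irradiated pool of 1 week and at 0.844 to 1.86 CPM in the other irradiated pools. Col27a1 was at 2.683 CPM in the same 1-week pool and at 0.401 to 0.844 CPM in the others. In controls Col27a1 was at 2.872 CPM at 32 weeks and at 0.649 to 1.27 CPM at the other times. The matched ratios of these genes at those times rest on that 1 pool.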

How the results depend on the processing

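At 32 weeks the count of members called was 0 and became 7 with DESeq2, 3 with no filter on low counts (Col6a1, Col6a2 and Col14a1, lower), 1 with limma on log2(FPKM + 1) (Col8a2, higher) and 0 to 2 when 1 control was left out, with Col14a1 and Col8a2 called without the 4-week control. The control slope gave 1 call with DESeq2. The slope over all 10 pools gave 4 calls, 0 with total counts, 14 with DESeq2 and 0 to 2 when both pools of 1 time were left out. The cause of these moves was not tested. The other counts of calls, including that without the time block over the 5 times (0), and the count of matched 2-fold differences (38, then 37 with total counts and 40 with a prior count of 0.5) stayed within 1.5 times.

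Over the 5 times 258 of 288 log2 changes of the 24 genes followed kept their direction and 30 in 12 genes did not, each reversed value being smaller than the SE of that gene's change over all 5 times. With limma at pseudocounts of 1 and 0.1 Col1a2 gave 0.00 and 0.00, Col3a1 0.10 and 0.10, and Col11a2 −0.03 and −0.04. With total counts Col4a3 and Col6a1 gave −0.05 each. Without the time block Col3a1 gave 0.02, Col4a3 −0.03 and Col17a1 0.05. With both pools of 1 time left out, values ran from −0.39 to 0.07 for Col1a1, −0.27 to 0.11 for Col1a2, −0.19 to 0.13 for Col3a1, −0.17 to 0.22 for Col4a3, −0.01 to 0.70 for Col4a4, −0.10 to 0.20 for Col6a1, −0.27 to 0.09 for Col6a2, −0.44 to 0.18 for Col6a3, −0.28 to 0.59 for Col11a2, −0.82 to 0.10 for Col13a1, −0.59 to 0.02 for Col15a1 and −0.50 to 0.15 for Col17a1. At 32 weeks 120 of 120 values of the 10 members with an unadjusted p below 0.05 kept their direction.

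No time had a second pool of the same treatment, so a difference of 1 pool and an effect of the treatment at that time are not separated. Genes under about 3 CPM rest on few counts, and depth limits what can be seen of the 15 members that were not tested.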
